A study of Mus musculus with 12 samples.

Results

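Axonemal and ciliary genes were followed in CD11b-positive microglia isolated from the cerebral cortex of 12 male mice. The members were taken by symbol and comprised protein-coding genes whose names begin with Dnah, Dnaic, Dnali, Cfap, Rsph, Tekt, Spag, Ift or Bbs followed by a digit, together with Foxj1. This gave 97 of the 55487 genes in the count table, and the 73 that had at least 10 counts in 3 or more libraries are reported in all 4 groups. They include 37 of 54 members of the motile families (Dnah, Cfap and Rsph), 22 of 22 members of the transport families (Ift and Bbs) and 14 of 21 others. WT and App NL-G-F mice were each given either veh or rh Bri2 BRICHOS R221E, which makes 4 groups of 3 mice, and mice given the protein are called treated. App NL-G-F mice are knock-ins in which the mouse App gene, under its own promoter, carries a humanized Aβ sequence with the Swedish, Iberian and Arctic mutations. The protein rh Bri2 BRICHOS R221E is a recombinant human chaperone domain with a substitution that favours monomers. Veh was PBS. All groups received 24 intravenous injections over 12 weeks from 9 months of age, at 10 mg/kg in the treated mice, and were killed 4 weeks after the treatment ended. Cells were taken from papain-digested cortex with CD11b magnetic beads.

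A motile cilium beats because dynein motors slide the microtubule doublets of its axoneme against each other. Dnah genes encode the heavy chains of the outer and inner dynein arms, Rsph genes the radial spokes that regulate them, and most Cfap genes proteins of the central apparatus, the doublet lumen or the regulatory complexes between the doublets. Foxj1 is the transcription factor that switches on this programme, and in the brain the best known multiciliated cells are the ependymal cells and the epithelium of the choroid plexus. Ift genes encode the particles that carry cargo along every cilium, motile or primary, and Bbs genes the BBSome, which moves membrane proteins out of cilia, and its assembly chaperones. The symbol rule also takes in genes whose products work outside cilia, such as Spag5, a protein of the mitotic spindle, and Spag9, a scaffold of JNK signalling and vesicle transport.

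Between 12433402 and 17889654 reads per library were counted on genes, so that 3 counts, taken as the detection limit, corresponded to 0.168 to 0.241 CPM (counts scaled to library size; this limit reflects counting error alone). Against counting error alone, the chi-square per degree of freedom was at least 5.39 in every pair of mice of a group. Separate mice differ by more than counting error in any case, so that this value only describes the spread. The 8 markers of microglia summed to 28608 to 33489 CPM and were detected in all libraries. The 10 markers of the choroid plexus, led by Ttr, the carrier of thyroxine in the cerebrospinal fluid, summed to 885 and 936 CPM in veh-treated WT mice 2 and 1 but to 4074 CPM in mouse 3, so that this library stood apart from its group.

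Levels are CPM scaled with edgeR's TMM factors, and levels of different genes are compared only per kilobase of annotated exon, as means over all 12 mice. On this scale the median was 0.365 CPM per kb for motile members and 2.84 CPM per kb for transport members, with ranges of 0.0408 to 7.16 and 0.478 to 12.9. The highest transport members were Ift52 at 12.9, Ift20 at 12.1 and Ift172 at 9.14 CPM per kb, all parts of the IFT-B particle that runs towards the ciliary tip. The highest motile members were Cfap36 at 7.16, Cfap74 at 6.08 and Cfap20 at 5.40 CPM per kb, an order that differed by strain. Cfap74 was at 7.95 CPM per kb in veh-treated WT mice, above Cfap36 (6.68), and at 4.41 CPM per kb in App NL-G-F mice given veh, below Cfap36 (7.73), Cfap20 (5.33) and Cfap298 (5.04). Foxj1 was at 3.54 CPM per kb, while the heavy chains were between 0.0408 (Dnah3) and 0.252 CPM per kb (Dnah6). The order of the heavy chains differed by group. Dnah2 (0.208) was above Dnah6 (0.206) in veh-treated WT mice, and Dnah1 (0.0788) was below Dnah3 (0.116) in treated WT mice. The highest values of all belonged to Spag7 and Spag9, at 24.4 and 16.0 CPM per kb. In counts, 18 of the 37 motile members had at least 10 in every library, against 22 of 22 transport members.

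In WT mice, most motile members were higher after treatment with rh Bri2 BRICHOS R221E. Of the 37 motile members, 24 were higher and 0 lower at an unadjusted p-value under 0.05 in edgeR's quasi-likelihood test. Of all 15425 tested genes, 6.55% were higher and 4.83% lower. The study used the same significance level with DESeq2's Wald test, and its methods also name a log2 fold change above 1 in size. The median log2 fold change of the motile members was 0.97, against -0.00 over all tested genes. The motile members Dnah3, Cfap46, Cfap57 and Cfap100 and the other member Spag8 would not have had 10 counts in 3 libraries without the treated WT mice. Cfap100 and Spag8 would not have had them without the App NL-G-F mice given veh either. All 5 thus entered through a group in which they may be high. Without these 5, 21 of 33 motile members were higher, with a median that was again 0.97, and 5 of 13 others, with a median of 0.55. Of the 22 transport members, 3 were higher and 0 lower, with a median log2 fold change of 0.16. Of the 14 others, 6 were higher and 0 lower, with a median of 0.63. By family, 9 of 10 Dnah, 13 of 21 Cfap, 2 of 6 Rsph, 2 of 14 Ift and 1 of 8 Bbs members were higher. The adjusted p-value (Benjamini-Hochberg over all tested genes) was under 0.05 for 0 of the 15425 genes with edgeR, and the lowest among the members was 0.190. With DESeq2's Wald test it was under 0.05 for 80 genes, including the members Dnah6, Cfap65 and Foxj1. The count of 33 members fell to 12 (10 of them motile) without treated WT mouse 3 and to 17 without veh-treated WT mouse 2, and was 37 without veh-treated WT mouse 3.

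Foxj1 (ENSMUSG00000034227, chr11:116330704-116335399, minus strand) had 9.04, 6.41 and 10.6 CPM in the 3 veh-treated WT mice and 14.2, 17.0 and 22.9 CPM in the 3 treated WT mice. The groups did not overlap, and treated mouse 3 was the highest. Its fitted level was 2.09-fold higher with treatment (log2 fold change 1.06, SE 0.26, unadjusted p = 0.00154, adjusted p = 0.239 from edgeR), and it passed the unadjusted threshold with any single library left out. In App NL-G-F mice it had 7.25, 4.27 and 5.63 CPM with veh and 5.36, 3.39 and 5.44 CPM with treatment, so that the groups overlapped (log2 fold change -0.28, SE 0.28, unadjusted p = 0.338).

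**Figure D1:**
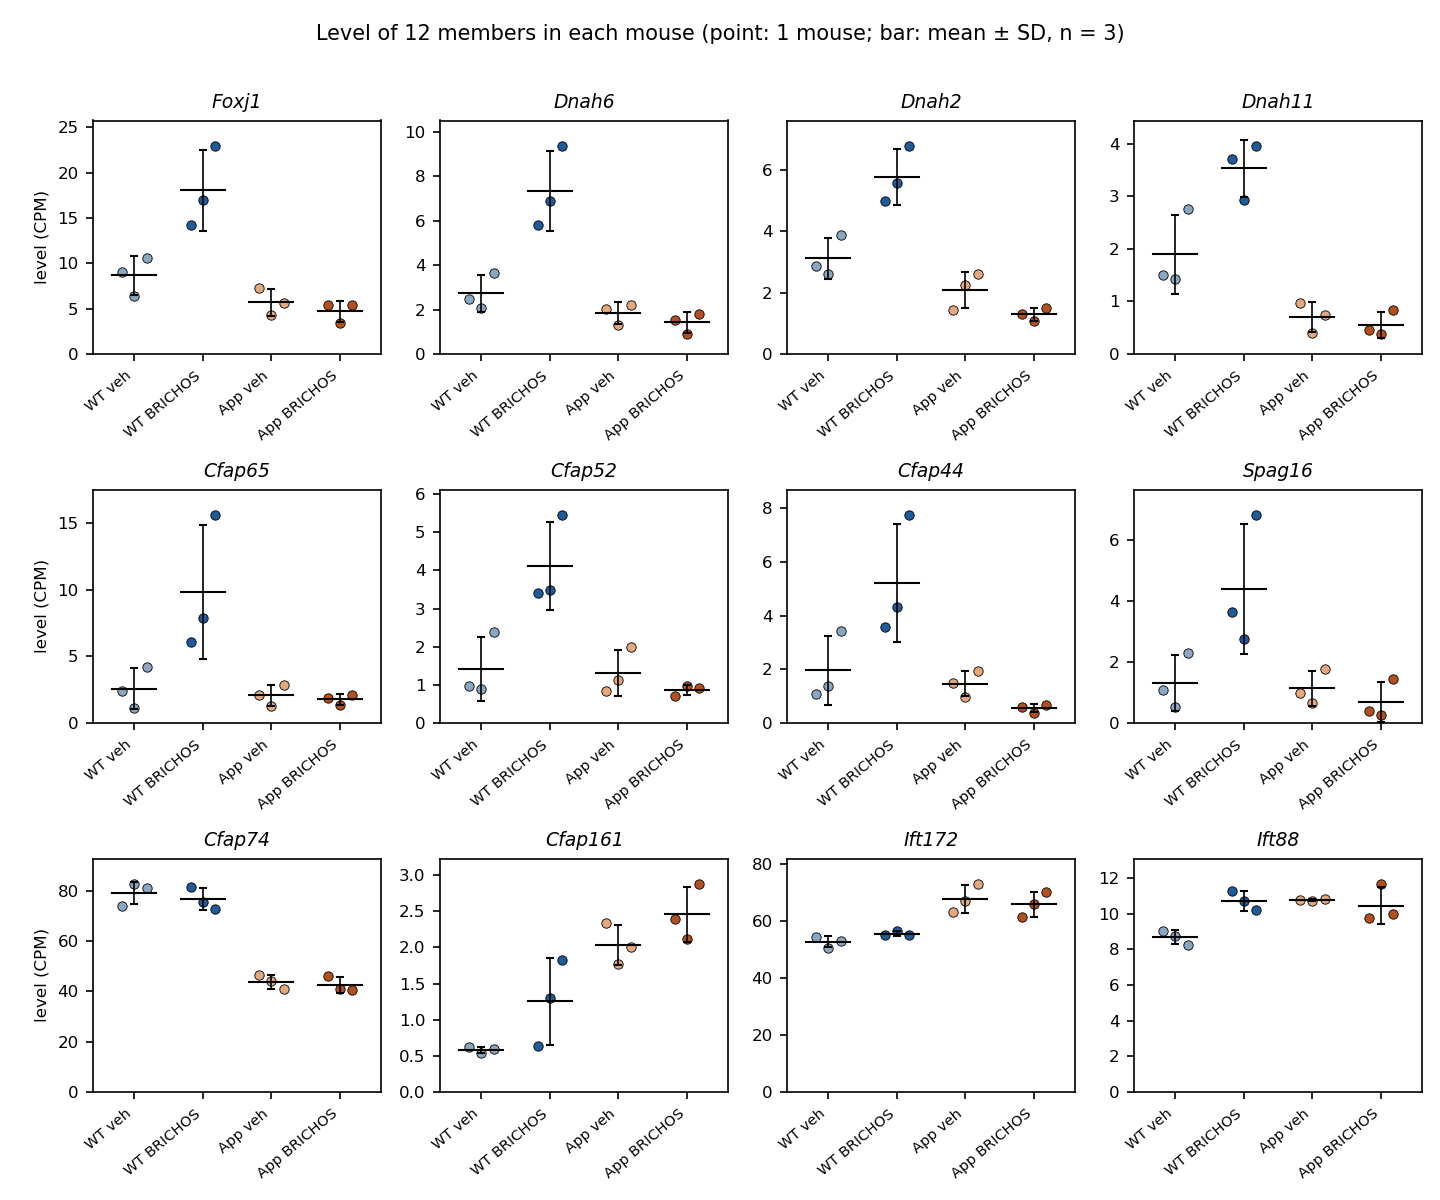
Level in CPM (vertical axes, linear from 0) of 12 members in each of the 12 mice, by group; points are mice, horizontal bars the mean and whiskers the SD of 3 mice. Foxj1 and the dynein and Cfap genes of the upper rows were highest in the treated WT mice, Cfap74 was separated by strain alone, and Cfap161 was lowest in the veh-treated WT mice.

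All 10 reported dynein heavy chains had log2 fold changes above 0, and 9 of them, Dnah3 included, passed the threshold, beside 6.55% of all tested genes that were higher. Of the 5 with too few counts, Dnah8 (from 0.585 to 0.433 CPM) and Dnah17 (from 0.356 to 0.237 CPM) were lower on average in treated WT mice. Dnah7a, Dnah7c and Dnah14 were higher on average. Dnah6, a heavy chain of the inner arms (ENSMUSG00000052861, chr6:73017606-73221651), had 2.47, 2.08 and 3.65 CPM in veh-treated and 5.79, 6.87 and 9.33 CPM in treated WT mice, a 2.70-fold difference (log2 fold change 1.43, SE 0.30, unadjusted p = 0.000495). Dnah2, of the inner arms as well (ENSMUSG00000005237, chr11:69420809-69549110), had 2.88, 2.61 and 3.87 CPM against 4.98, 5.58 and 6.75 CPM, a 1.85-fold difference (log2 fold change 0.89, SE 0.24, unadjusted p = 0.00318). Neither gene overlapped between the groups, and both passed the threshold with any single library left out. The outer arm chains Dnah11, Dnah9 and Dnah5 had log2 fold changes of 0.91, 1.03 and 1.34, with unadjusted p-values of 0.0218, 0.0332 and 0.0380. Of these, Dnah11 did not overlap between the groups, whereas Dnah9 and Dnah5 did. Dnah3 (2, 7 and 4 counts with veh and 11, 30 and 45 counts with treatment) reached 10 counts only in the treated WT mice, so that it entered the reported set through the group in which it is high. Dnah7b was the reported heavy chain that did not pass the threshold (log2 fold change 0.90, unadjusted p = 0.0994). Reads of Dnah7b may be shared with its close paralogs Dnah7a and Dnah7c, which had too few counts to be reported.

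Among the Cfap genes, the lowest p-value belonged to Cfap46, a protein of the central apparatus (ENSMUSG00000049571, chr7:139600951-139683817). It had 0.548, 0.415 and 0.149 CPM in veh-treated and 1.45, 1.86 and 1.83 CPM in treated WT mice (log2 fold change 2.17, SE 0.43, unadjusted p = 0.000369). Like Dnah3, it reached 10 counts only in the treated WT mice. It thus entered through the group in which it is high, and its test lends no support. Of the Cfap genes that met the count rule without that group, Cfap65 had the lowest p-value. Cfap65, needed for the flagellum of sperm (ENSMUSG00000047021, chr1:74902071-74935599), had 2.40, 1.13 and 4.17 CPM against 6.11, 7.88 and 15.6 CPM, a 3.89-fold difference (log2 fold change 1.96, SE 0.46, unadjusted p = 0.00125). Treated mouse 3 stood above the others. Cfap52, a protein inside the doublet microtubules (ENSMUSG00000020904, chr11:67924806-67965651), had 0.959, 0.890 and 2.38 CPM against 3.40, 3.49 and 5.44 CPM, a 2.95-fold difference (log2 fold change 1.56, SE 0.40, unadjusted p = 0.00240). Cfap65 and Cfap52 did not overlap between the groups and passed the threshold with any single library left out.

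The Cfap genes with the highest counts did not pass the threshold. Cfap74, a protein of the central apparatus (ENSMUSG00000078490, chr4:155409190-155466823), had 74.0, 82.4 and 80.9 CPM in veh-treated and 81.4, 75.4 and 72.8 CPM in treated WT mice (log2 fold change -0.05, SE 0.07, unadjusted p = 0.529). Cfap97 had 27.1 ± 2.0 and 24.0 ± 1.73 CPM (SD, n = 3), and Cfap20, a protein of the inner junction of the doublets, had 23.1 ± 0.574 and 25.0 ± 2.0 CPM. Their log2 fold changes were -0.17 and 0.12, with unadjusted p-values of 0.161 and 0.184. All 3 overlapped between the groups. When the motile members were split by their mean over all 12 mice, 12 of the 20 with at least 2 CPM and 12 of the 17 with less were higher, with median log2 fold changes of 0.92 and 1.20. Over all tested genes 6.55% were higher. The 17 include Dnah3, Cfap46, Cfap57 and Cfap100, which met the count rule only with the treated WT mice and so lend no support.

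Of the radial spoke genes, the spoke head members Rsph1 and Rsph9 were higher in treated WT mice, with 2.21 ± 1.01 against 5.06 ± 1.70 CPM for Rsph1 and 2.67 ± 1.43 against 5.19 ± 1.74 CPM for Rsph9 (SD, n = 3). The log2 fold changes were 1.21 (SE 0.39, unadjusted p = 0.00914) and 0.97 (SE 0.35, unadjusted p = 0.0172). Rsph4a, a further protein of the spoke head, had a log2 fold change of 0.97 and an unadjusted p-value of 0.0572. Rsph3a and Rsph3b, of the spoke stalk, had log2 fold changes of 0.31 and 0.11 and did not pass the threshold. They are close paralogs, and how reads that match both were counted is not given in the sources used here.

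Among the other members, Spag16, of the central apparatus (ENSMUSG00000053153, chr1:69826970-70725132), had 1.10, 0.534 and 2.31 CPM in veh-treated and 3.65, 2.76 and 6.81 CPM in treated WT mice (log2 fold change 1.77, SE 0.61, unadjusted p = 0.0134). The groups did not overlap, but the unadjusted p-value was 0.0570 without veh-treated WT mouse 2 and 0.0670 without treated WT mouse 3. Spag6l, of the central apparatus, Spag8, a protein of the doublet lumen, the outer arm intermediate chain Dnaic1 and the tektin Tekt1 were higher as well, with log2 fold changes of 1.16, 1.31, 1.15 and 1.17 and unadjusted p-values of 0.0237, 0.0240, 0.0261 and 0.0346. Spag8 had 10 counts in 4 libraries, 2 of treated WT mice and 2 of App NL-G-F mice given veh. It thus met the count rule only with both groups, and its test in WT mice lends no support. Each of these 4 genes failed the threshold without veh-treated WT mouse 2 and without treated WT mouse 3. Dnaic2, Dnali1 and Spag1, a further intermediate chain, a light intermediate chain of the inner arms and a factor of dynein assembly, had log2 fold changes of 0.55, 0.71 and 0.49 with unadjusted p-values of 0.130, 0.207 and 0.148. Tekt2, Spag4, Spag5, Spag7 and Spag9 had log2 fold changes of -0.21, 0.41, -0.17, 0.11 and -0.06 and did not pass the threshold.

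The transport members differed little between treated and veh-treated WT mice. Ift88, a core protein of the IFT-B particle (ENSMUSG00000040040, chr14:57424062-57517936), had 9.04, 8.78 and 8.27 CPM with veh and 11.3, 10.7 and 10.2 CPM with treatment, a 1.23-fold difference without overlap (log2 fold change 0.30, SE 0.10, unadjusted p = 0.0126). Bbs1, of the BBSome, had 7.66 ± 0.521 and 9.57 ± 0.514 CPM, and Ift74, of IFT-B, 7.56 ± 0.967 and 9.77 ± 0.796 CPM (SD, n = 3). Their log2 fold changes were 0.32 (SE 0.11, unadjusted p = 0.0164) and 0.37 (SE 0.16, unadjusted p = 0.0357), and both failed the threshold without veh-treated WT mouse 2 and without treated WT mouse 3. The transport members with the highest counts, Ift172, Ift52 and Ift140, the last of the IFT-A particle that returns to the ciliary base, had log2 fold changes of 0.08, 0.03 and -0.04 and did not pass the threshold. The log2 fold changes of all 22 transport members lay between -0.04 and 0.41.

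**Figure D2:**
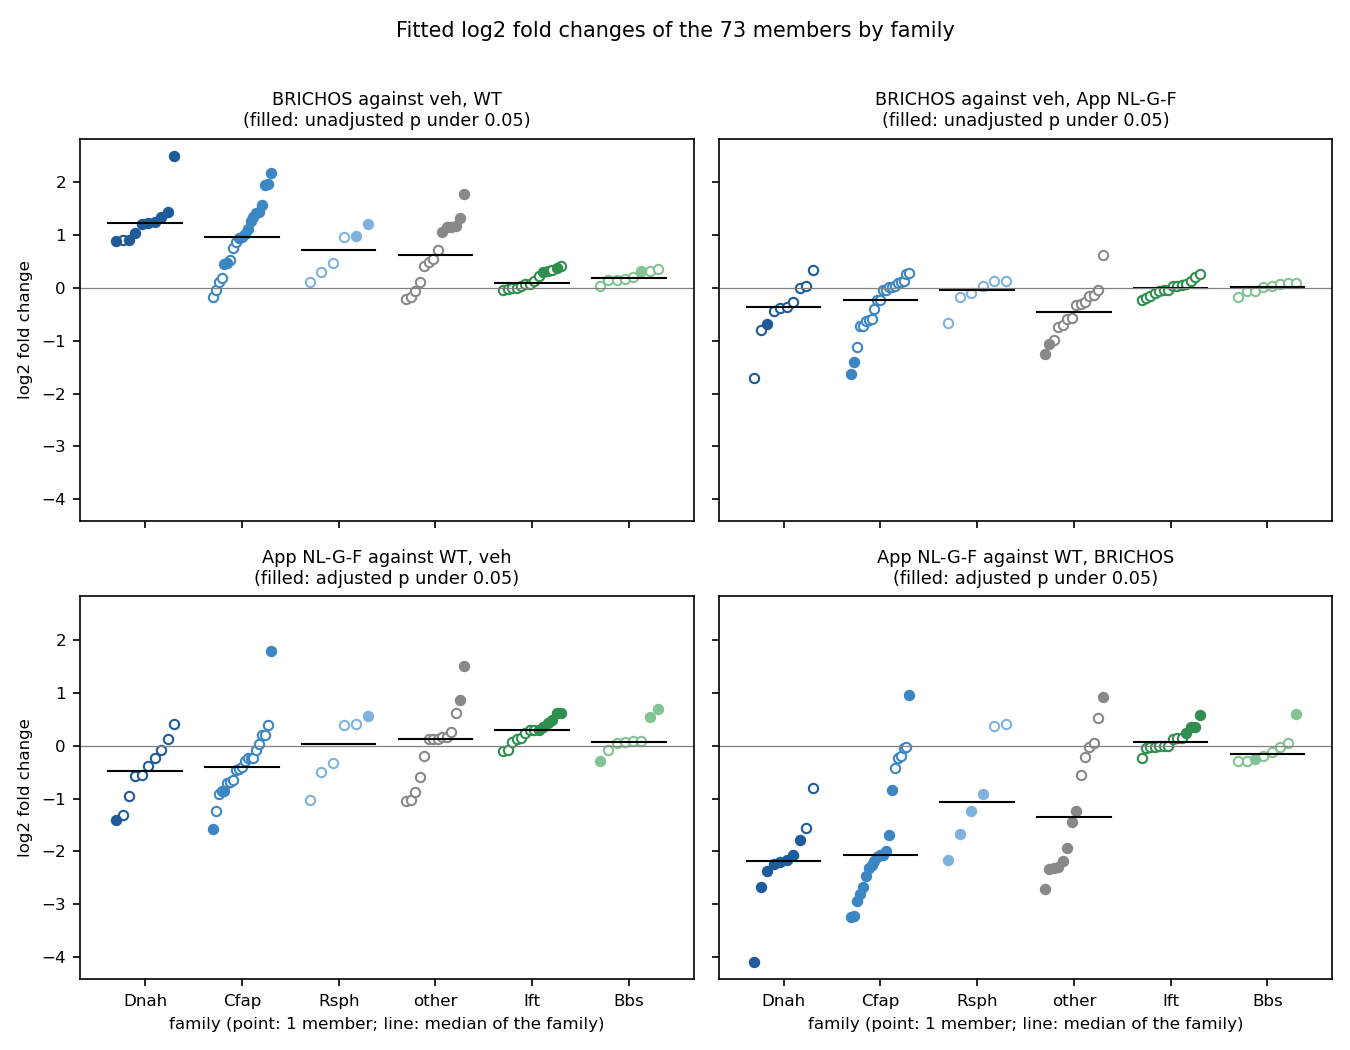
Fitted log2 fold change (vertical axis, shared by the panels) of the 73 members by family in 4 comparisons; each point is a member, filled where it passed the threshold named above the panel, and each line is the median of a family. In WT mice the medians of the Dnah, Cfap and Rsph genes lie above 0 and those of the Ift and Bbs genes near 0, and between treated mice of both strains the motile families reach down to a log2 fold change of -3.25 (Cfap44), apart from Dnah3, the lowest point, which had 0.194, 0 and 0.0755 CPM in the treated App NL-G-F mice.

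RefSeq promoter windows, from 250 bases before to 50 bases after the start of a gene on GRCm38.p6, were found for 61 of the 73 members and searched on both strands for letters that the ciliogenic regulators are known to prefer. The core letters of the RFX motif, GTTGCC, occurred in 11 of 30 motile (36.7%), 8 of 19 transport (42.1%) and 6 of 12 other windows (50%), against 12.5% of all 32851 windows. Members that were higher in treated WT mice held them in 12 of 28 windows (42.9%) and the remaining members in 13 of 33 (39.4%). A full X-box (GTTNCC and GGNAAC with up to 3 bases between them, which contains the core letters wherever its first N is G or its second N is C) occurred in 3 of the 61 windows (4.92%, against 0.804% of all), and the forkhead letters GTAAACA in 2 (3.28%, against 3.65%). A match is a description of the sequence and not evidence of binding. The windows below are those of the 6 members that were higher in treated WT mice and hold the core letters at least 2 times, and of the transport members Ift57 and Bbs7, which hold a full X-box. They were chosen after the values had been seen. Capitals mark the matches, and each window reads 5′ to 3′ on the strand of the gene.
Cfap298 (chr16:90934800-90935099, minus strand): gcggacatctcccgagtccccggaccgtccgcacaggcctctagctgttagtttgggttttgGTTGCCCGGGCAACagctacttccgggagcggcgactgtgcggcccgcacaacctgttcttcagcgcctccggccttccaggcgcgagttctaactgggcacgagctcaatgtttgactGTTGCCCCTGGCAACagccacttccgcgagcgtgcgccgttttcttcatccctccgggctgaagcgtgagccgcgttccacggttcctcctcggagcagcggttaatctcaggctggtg
Dnah10 (chr5:124724835-124725134, plus strand): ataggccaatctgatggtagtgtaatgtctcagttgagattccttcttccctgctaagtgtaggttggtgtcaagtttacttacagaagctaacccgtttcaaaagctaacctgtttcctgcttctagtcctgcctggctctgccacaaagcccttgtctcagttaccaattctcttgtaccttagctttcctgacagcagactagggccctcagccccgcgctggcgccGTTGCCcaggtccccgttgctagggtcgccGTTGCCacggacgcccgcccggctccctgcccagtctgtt
Cfap44 (chr16:44394549-44394848, plus strand): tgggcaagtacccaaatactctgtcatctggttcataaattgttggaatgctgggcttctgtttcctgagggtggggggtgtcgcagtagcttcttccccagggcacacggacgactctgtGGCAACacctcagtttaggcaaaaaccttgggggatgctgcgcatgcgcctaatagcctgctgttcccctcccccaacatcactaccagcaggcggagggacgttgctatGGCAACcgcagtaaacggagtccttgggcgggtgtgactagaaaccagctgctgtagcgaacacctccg
Cfap161 (chr7:83794790-83795089, minus strand): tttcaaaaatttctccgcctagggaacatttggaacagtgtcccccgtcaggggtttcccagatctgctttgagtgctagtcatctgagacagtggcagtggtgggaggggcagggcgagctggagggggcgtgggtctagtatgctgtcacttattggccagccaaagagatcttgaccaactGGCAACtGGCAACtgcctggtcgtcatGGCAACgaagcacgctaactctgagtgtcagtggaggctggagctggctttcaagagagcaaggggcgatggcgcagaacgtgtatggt
Spag16 (chr1:69826720-69827019, plus strand): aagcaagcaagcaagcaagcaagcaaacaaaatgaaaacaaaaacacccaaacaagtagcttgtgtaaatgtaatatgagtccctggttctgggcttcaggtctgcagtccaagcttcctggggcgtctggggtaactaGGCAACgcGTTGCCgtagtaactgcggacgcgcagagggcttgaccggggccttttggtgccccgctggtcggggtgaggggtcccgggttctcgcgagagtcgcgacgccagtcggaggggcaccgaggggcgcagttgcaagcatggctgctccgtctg
Tekt1 (chr11:72361833-72362132, minus strand): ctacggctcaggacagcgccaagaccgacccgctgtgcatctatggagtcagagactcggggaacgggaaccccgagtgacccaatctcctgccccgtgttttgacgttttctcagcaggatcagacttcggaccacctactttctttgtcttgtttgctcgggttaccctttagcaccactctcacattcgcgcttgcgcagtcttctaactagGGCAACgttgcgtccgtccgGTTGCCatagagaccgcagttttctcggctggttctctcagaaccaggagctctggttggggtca
Ift57 (chr16:49699044-49699343, plus strand): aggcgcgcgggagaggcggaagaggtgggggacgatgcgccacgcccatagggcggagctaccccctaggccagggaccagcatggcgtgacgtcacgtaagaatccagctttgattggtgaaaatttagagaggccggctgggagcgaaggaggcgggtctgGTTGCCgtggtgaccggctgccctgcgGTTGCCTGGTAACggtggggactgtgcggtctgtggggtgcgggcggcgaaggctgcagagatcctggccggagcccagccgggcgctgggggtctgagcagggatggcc
Bbs7 (chr3:36613340-36613639, minus strand): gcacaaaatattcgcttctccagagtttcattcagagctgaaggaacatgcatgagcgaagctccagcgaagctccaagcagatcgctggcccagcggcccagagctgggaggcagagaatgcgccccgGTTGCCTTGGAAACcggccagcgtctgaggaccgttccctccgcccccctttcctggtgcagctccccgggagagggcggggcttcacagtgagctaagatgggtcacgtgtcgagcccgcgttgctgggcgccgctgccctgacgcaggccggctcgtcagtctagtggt

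In these windows the matches of Tekt1 began 35 and 15 bases before the start, those of Spag16 111 and 103 bases before it, those of Cfap44 129 and 19 bases before it, those of Cfap161 66, 59 and 39 bases before it, and the X-boxes of Ift57 and Bbs7 60 and 121 bases before it. Cfap298, needed for the assembly of dynein arms, held 2 X-boxes, which began 188 and 69 bases before the start, and had 6.50, 7.47 and 6.93 CPM in veh-treated and 7.87, 9.57 and 11.1 CPM in treated WT mice (log2 fold change 0.45, unadjusted p = 0.00938). Its groups did not overlap. Dnah10, a heavy chain of the inner arms with 0.793 ± 0.255 and 1.91 ± 0.637 CPM in veh-treated and treated WT mice (SD, n = 3), held a match 20 bases before the start and another at base 11 after it. Ift57, of the IFT-B particle, had a log2 fold change of 0.35 in treated WT mice and did not pass the threshold (unadjusted p = 0.0512), and Bbs7, of the BBSome, had one of 0.17 (unadjusted p = 0.192). Members with the core letters were thus found among genes that passed the threshold and among genes that did not, in nearly equal shares.

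Further genes of the pathway, listed apart from the symbol rule, were counted in the same way. Of 42 genes of motile cilia, 34 were tested, and 16 of them were higher and 0 lower in treated WT mice, with a median log2 fold change of 1.10 (6.55% of all tested genes were higher and 4.83% lower). They include Rfx2, a transcription factor of ciliogenesis (1.41 against 3.56 CPM on average, log2 fold change 1.33, unadjusted p = 0.00220), Ccdc39, a ruler of the doublets (log2 fold change 1.19, unadjusted p = 0.00534), and Hydin, of the central apparatus (log2 fold change 1.26, unadjusted p = 0.00767). Mcidas, an inducer of multiciliated cells, had no count in any library. Of 38 genes of ciliary transport and the transition zone, 37 were tested, and 7 were higher and 0 lower, with a median log2 fold change of 0.10, beside the same 6.55% of all genes. Those 7 include Tctn2, of the transition zone, with a log2 fold change of 1.16 (unadjusted p = 0.00914). Whether genes of either list passed the filter on low counts only through the treated WT mice was not checked. Their counts thus lend no separate support.

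Markers of some other cell types were higher in treated WT mice as well. They were counted at the unadjusted threshold, beside 6.55% of all tested genes that were higher and 4.83% that were lower. The 9 markers of ependymal cells summed to 7.89 to 15.1 CPM in veh-treated WT mice, 17.6 to 33.2 CPM in treated WT mice, 6.10 to 10.8 CPM in App NL-G-F mice given veh and 5.36 to 6.57 CPM in treated App NL-G-F mice, and 5 of the 7 tested were higher in treated WT mice. These 5 include 1700012B09Rik, with means of 0.700 CPM in treated WT mice and at most 0.226 CPM in the other groups. It may have passed the filter on low counts only through the treated WT mice, and so lends no support. Ccdc153, Fam183b, Dynlrb2 and Enkur are themselves genes of motile cilia, so that the list is not separate from the motile pathway. Dynlrb2 and Enkur are also counted among the further motile genes above. Ccdc153, Dynlrb2 and Enkur are among the 5 that were higher, and the remaining one is Rarres2 (log2 fold change 0.69, unadjusted p = 0.0362 from edgeR). All 9 markers had counts in at least 1 library of each of the WT groups. The markers of the choroid plexus summed to 885 to 4074, 3369 to 6949, 659 to 2043 and 664 to 1007 CPM in the same order of groups, with 2 of 10 higher in treated WT mice, and the 5 markers of fibroblasts to 8.76 to 11.3, 17.8 to 25.3, 6.74 to 9.98 and 3.77 to 6.87 CPM, with 4 of 5 higher. In each of these 3 lists treated WT mouse 3 was the highest library, as it was for the sum of the motile members (319 CPM). The markers of microglia summed to 30169 to 33256 CPM in veh-treated and 28608 to 30356 CPM in treated WT mice, and 1 of the 8, the fractalkine receptor Cx3cr1, was lower (log2 fold change -0.15, unadjusted p = 0.0397). The 6 markers of oligodendrocytes, at 9595 to 16823 CPM with veh and 4130 to 15378 CPM with treatment, overlapped between the groups. None of the markers of oligodendrocytes (6 tested), astrocytes (8), neurons (7), endothelial cells (6) and mural cells (6) had an unadjusted p-value under 0.05 with edgeR in this comparison. The part of these other cells in the levels of the members was not tested. In bulk RNA, fewer cells of a type and less RNA per cell cannot be told apart.

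**Figure D3:**
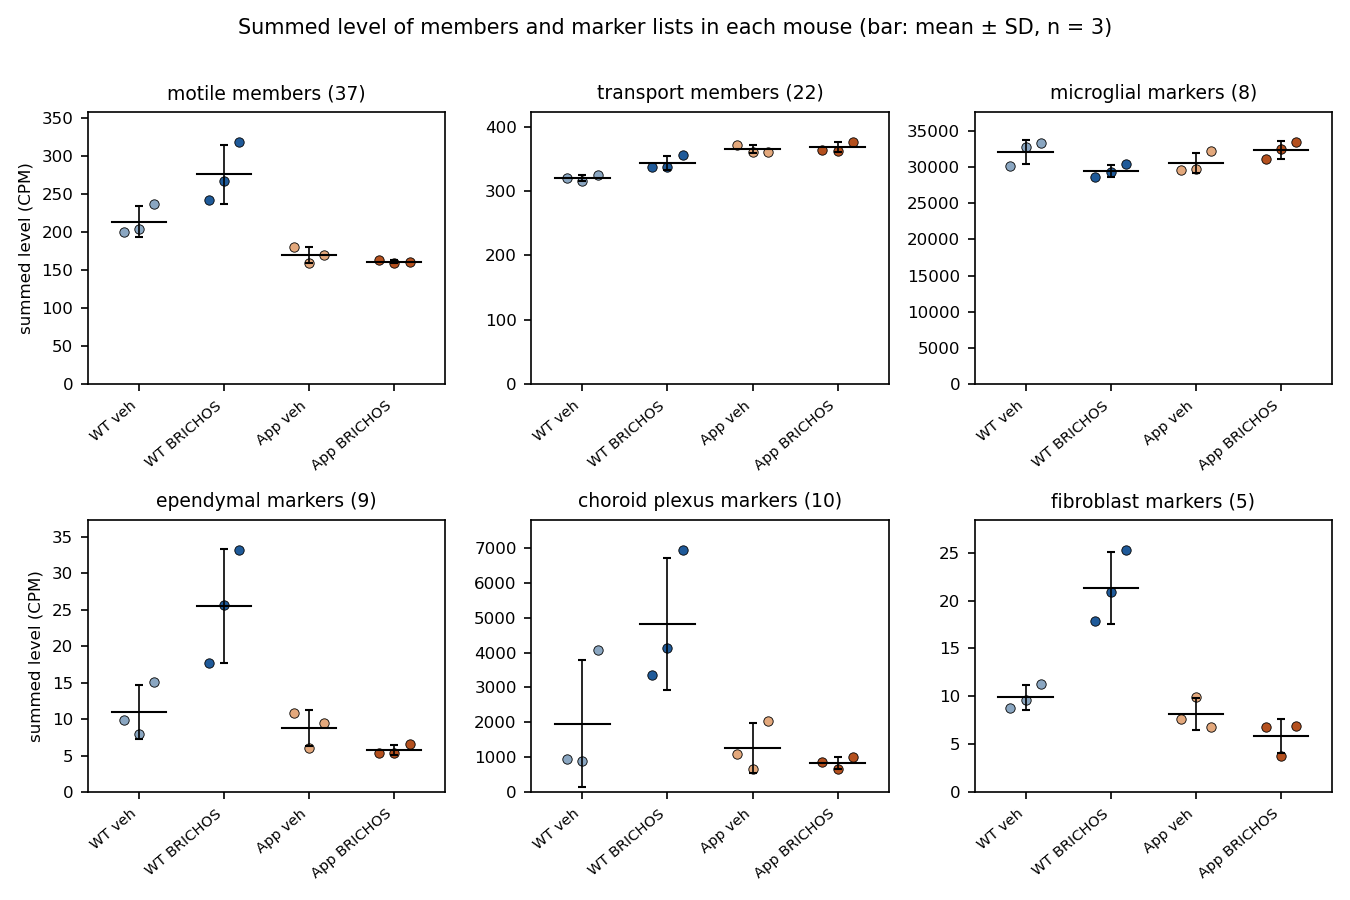
Summed level in CPM (vertical axes, linear from 0) of the motile and transport members and of 4 marker lists in each of the 12 mice; points are mice, bars the mean and whiskers the SD of 3 mice. The motile members, at 242 to 319 CPM, and the ependymal, choroid plexus and fibroblast markers were highest on average in the treated WT mice, whereas the transport members, at 316 to 377 CPM over all mice, were highest on average in the App NL-G-F mice.

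In App NL-G-F mice no motile member passed the threshold for a higher level after the treatment, although 13 of the 37 had log2 fold changes above 0. At an unadjusted p-value under 0.05, 0 of 37 were higher and 3 lower, whereas 3.18% of all tested genes were higher and 7.67% lower, and the median log2 fold change was -0.22 (0.01 over all tested genes). The shares of motile members that were higher, 0 of 37, and lower, 3 of 37, were both near those of all genes. Of the 22 transport members, 0 were higher and 0 lower, with a median of 0.02, and of the 14 others 0 were higher and 2 lower, with a median of -0.45. No member had an adjusted p-value under 0.05 with edgeR or with DESeq2, and the lowest with edgeR was 0.337. The 3 motile members were Cfap44, Dnah2 and Cfap206. Cfap44, of the complex that tethers the inner dynein arms (ENSMUSG00000071550, chr16:44394796-44482428), had 1.49, 0.985 and 1.93 CPM with veh and 0.581, 0.384 and 0.680 CPM with treatment, and thus fell by 1.41 on the log2 scale without overlap (SE 0.54, unadjusted p = 0.0235). Cfap206, which links the radial spokes to the doublets, fell from 1.01 ± 0.238 to 0.330 ± 0.246 CPM (SD, n = 3), from 15, 12 and 17 to 2, 4 and 8 counts. Its log2 fold change was -1.62 (SE 0.71, unadjusted p = 0.0430). Dnah2 had 1.42, 2.23 and 2.59 CPM against 1.29, 1.09 and 1.51 CPM, with overlap (log2 fold change -0.68, SE 0.28, unadjusted p = 0.0303).

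The others were Dnaic2, an intermediate chain of the outer arms, and Tekt1. Dnaic2 (ENSMUSG00000034706, chr11:114727408-114757889) had 2.65, 1.12 and 2.37 CPM with veh and 0.968, 0.896 and 1.06 CPM with treatment (log2 fold change -1.07, SE 0.37, unadjusted p = 0.0136). Tekt1 had 1.47 ± 0.416 and 0.609 ± 0.0992 CPM (SD, n = 3), and its log2 fold change was -1.25 (SE 0.56, unadjusted p = 0.0476). Neither overlapped between the groups. All 5 genes failed the threshold when at least 1 single library was left out, and the count of 5 fell to 2 without treated App NL-G-F mouse 1 or 2 and to 3 without treated WT mouse 2, which enters only through the shared spread. Of the further genes of the pathway, 3 of 34 motile and 2 of 37 transport genes were lower and 0 higher, shares near the 7.67% of all tested genes. They include Rfx3 and Rfx4, transcription factors of ciliogenesis. Rfx4 is also found in astrocytes, whose 8 markers summed to 1418 to 4553 CPM in veh-treated and 661 to 1910 CPM in treated App NL-G-F mice, all 8 lower at the unadjusted threshold. Of the other lists, 5 of 6 markers of endothelial cells (median log2 fold change -0.64), 4 of 6 of mural cells (-0.69), 2 of 5 of fibroblasts, 1 of 7 of ependymal cells and 1 of 7 of neurons were lower. The part of these cells in the levels of the members was not tested.

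The difference between the treatment effects (the log2 fold change in App NL-G-F mice minus that in WT mice) was tested within the same model. It was below 0 at an unadjusted p-value under 0.05 for 17 of 37 motile, 3 of 22 transport and 6 of 14 other members and above 0 for none of them, whereas 9.54% of all tested genes were below and 5.23% above. Without the 5 members that met the count rule through the treated WT mice, 14 of 33 motile members and 5 of 13 others were below 0. The median difference was -1.30 for motile and -0.14 for transport members, and 0.01 over all tested genes. With edgeR, the adjusted p-value was under 0.05 for 0 members (lowest 0.156). It was under 0.05 with DESeq2's Wald test for Dnah6, Dnah2, Foxj1 and Cfap44, and for Cfap44 with edgeR without the filter on low counts. Without veh-treated WT mouse 3 it was under 0.05 with edgeR for 2 members (lowest 0.0365) and for 62 genes in all. The difference was -2.84 for Cfap44 (SE 0.69, unadjusted p = 0.00158), -1.82 for Dnah6 (SE 0.45, unadjusted p = 0.00192), -1.57 for Dnah2 (SE 0.37, unadjusted p = 0.00114) and -1.34 for Foxj1 (SE 0.38, unadjusted p = 0.00434). Without App NL-G-F mouse 1 given veh the count of 26 members fell to 17.

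Between veh-treated mice of both strains, the transport members were higher in App NL-G-F mice more often than lower. The strain comparisons were called with edgeR where the adjusted p-value was under 0.05. Of the 22 transport members, 8 were higher and 1 lower, whereas 20.1% of all tested genes were higher and 16.9% lower, and the median log2 fold change was 0.20 (-0.02 over all tested genes). This count depended on single mice. Over all 73 members, 12 were higher, but 5 without veh-treated WT mouse 2 (16.6% of all genes) and 6 without the filter on low counts (9.61%). Bbs2, Ift22 and Ift172 passed the threshold with any single library left out. Bbs2, of the BBSome (ENSMUSG00000031755, chr8:94067954-94098928), had 14.6, 13.0 and 12.0 CPM in WT and 22.8, 23.1 and 18.4 CPM in App NL-G-F mice, a 1.62-fold difference without overlap (log2 fold change 0.70, SE 0.10, adjusted p = 0.000307). Ift22, of IFT-B, had 12.9 ± 0.726 and 19.9 ± 0.844 CPM, and Ift172 had 52.7 ± 1.96 and 67.7 ± 4.83 CPM (SD, n = 3), with log2 fold changes of 0.63 (SE 0.11, adjusted p = 0.000713 from edgeR) and 0.36 (SE 0.07, adjusted p = 0.00125). The remaining transport members that were higher were Ift122, Ift27, Bbs5, Ift57 and Ift88, with log2 fold changes of 0.63, 0.44, 0.55, 0.48 and 0.31. Bbs9, of the BBSome as well, was the member that was lower, with 36.4, 32.4 and 31.2 CPM in WT and 26.6, 27.8 and 27.6 CPM in App NL-G-F mice (log2 fold change -0.29, SE 0.07, adjusted p = 0.00649).

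Of the 37 motile members, 2 were higher and 3 lower in App NL-G-F mice given veh, with a median log2 fold change of -0.38, and of the 14 others 2 were higher and 0 lower, with a median of 0.13, beside 20.1% of all tested genes higher and 16.9% lower. Cfap74 was separated by strain, with 46.6, 43.9 and 41.0 CPM in App NL-G-F mice, below the lowest veh-treated WT mouse (74.0 CPM). It fell by 0.85 on the log2 scale (SE 0.07, adjusted p = 4.66e-06 from edgeR), a 1.80-fold difference. An annotated gene, 5830444B04Rik, overlaps Cfap74 on the opposite strand, and the strand setting of the counting is not given in the sources used here. Dnah11 (1.90 ± 0.747 against 0.702 ± 0.291 CPM) and Cfap61 (1.66 ± 1.22 against 0.541 ± 0.225 CPM; SD, n = 3) had log2 fold changes of -1.41 and -1.58 with adjusted p-values of 0.0154 and 0.0345 from edgeR. Both failed the threshold without veh-treated WT mouse 3 and without App NL-G-F mouse 2 given veh.

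Cfap161, a protein of the doublet lumen (ENSMUSG00000011154, chr7:83774101-83794880), went the other way. It had 0.616, 0.534 and 0.596 CPM in veh-treated WT mice and 2.33, 1.77 and 2.0 CPM in App NL-G-F mice given veh, a 3.47-fold difference (log2 fold change 1.80, SE 0.36, adjusted p = 0.00227 from edgeR). Its counts were 9, 9 and 8 against 36, 27 and 27. In the treated mice of both strains it had 0.630, 1.30 and 1.83 CPM (WT) and 2.39, 2.11 and 2.87 CPM (App NL-G-F). It was thus the only one of the 37 motile members with an adjusted p-value under 0.05 for a higher level in App NL-G-F mice in both strain comparisons. Rsph3a was 1.48-fold higher (adjusted p = 0.0338 from edgeR), Spag4, a nuclear envelope protein, 2.86-fold (adjusted p = 0.0178) and Spag5 1.83-fold (adjusted p = 0.0389). Leaving out single libraries raised these adjusted p-values to at most 0.106, 0.0615 and 0.147, and all 3 genes failed the threshold without veh-treated WT mouse 2. The count of 16 members fell to 9 without that mouse and to 9 without App NL-G-F mouse 2 given veh. Foxj1 had an adjusted p-value of 0.103 from edgeR (log2 fold change -0.60, SE 0.27). It passed the threshold only with a block for the replicate number, although same-numbered mice share only that number in the labels. Of the further genes of the pathway, 2 of 34 motile genes were higher and 2 lower, and 8 of 37 transport genes were higher and 1 lower, beside 20.1% of all tested genes higher and 16.9% lower.

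Markers of other cell types differed between the strains with veh. The 8 markers of astrocytes summed to 434 to 613 CPM in WT and 1418 to 4553 CPM in App NL-G-F mice, and all 8 were higher at an adjusted p-value under 0.05 (edgeR), with a median log2 fold change of 2.32. By the same threshold, lower levels in App NL-G-F mice were found for 5 of 6 markers of endothelial cells, 4 of 7 of neurons, 2 of 6 of oligodendrocytes, 1 of 6 of mural cells and 1 of 5 of fibroblasts, and of the 8 markers of microglia 3 were higher and 5 lower. Over all tested genes 16.9% were lower and 20.1% higher, so that the shares of mural and fibroblast markers were near that of all genes. Of the tested markers of ependymal cells (7) and of the choroid plexus (10) none had an adjusted p-value under 0.05 (edgeR), with 1 and 0 under 0.05 before adjustment. The part of these cells in the levels of the members was not tested.

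Between treated mice of both strains, motile members were lower in App NL-G-F mice. This comparison uses the same treated mice as the treatment comparisons of both strains, and its values stand beside those and do not add to them. With edgeR, 27 of 37 motile members had an adjusted p-value under 0.05 for a lower level and 1 for a higher level, whereas 21.8% of all tested genes were lower and 20.8% higher, and the median log2 fold change was -2.07 (-0.04 over all tested genes). Of the 22 transport members, 5 were higher and 1 lower, with a median of -0.01. Of the 14 others, 1 was higher and 8 lower, with a median of -1.34. By family, 8 of 10 Dnah, 15 of 21 Cfap and 4 of 6 Rsph members were lower. Without the 5 members that met the count rule through the treated WT mice, 23 of 33 motile members and 7 of 13 others were lower. The count of 43 members was between 37 and 43 with single libraries left out.

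Foxj1 fell by 1.93 on the log2 scale in this comparison (SE 0.27, adjusted p = 0.000158 from edgeR), a 3.82-fold difference, and the treated WT mice (14.2 to 22.9 CPM) did not overlap with the treated App NL-G-F mice (3.39 to 5.44 CPM). Dnah2 (5.77 ± 0.905 against 1.30 ± 0.212 CPM), Dnah6 (7.33 ± 1.81 against 1.42 ± 0.472 CPM) and Dnah11 (3.53 ± 0.535 against 0.556 ± 0.241 CPM; SD, n = 3) had log2 fold changes of -2.15, -2.37 and -2.67. Their adjusted p-values were 5.73e-05, 0.000122 and 0.000241 (edgeR), and the groups did not overlap for any of them. Cfap44 (5.22 ± 2.20 against 0.548 ± 0.151 CPM; SD, n = 3) had a log2 fold change of -3.25 (adjusted p = 0.000330 from edgeR). Cfap74 fell by 0.85 on the log2 scale, as it did between the veh-treated mice (adjusted p = 4.42e-06). Spag6l and Tekt1 had log2 fold changes of -2.34 and -2.29, with adjusted p-values of 0.00251 and 0.00498 (edgeR). Dnah3 had 11, 30 and 45 counts in treated WT and 3, 0 and 1 counts in treated App NL-G-F mice, which are at or below the detection limit.

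Among the members that were higher, Bbs2 (14.5 ± 0.492 against 22 ± 0.935 CPM), Ift22 (13.6 ± 1.15 against 20.4 ± 2.54 CPM) and Ift172 (55.6 ± 0.937 against 65.8 ± 4.32 CPM; SD, n = 3) had log2 fold changes of 0.60, 0.59 and 0.24. Between veh-treated mice these were 0.70, 0.63 and 0.36. Ift122 and Ift27 were higher as well, with log2 fold changes of 0.35 and 0.35, against 0.63 and 0.44 between veh-treated mice. Cfap161 was 1.94-fold and Spag5 1.89-fold higher, with adjusted p-values of 0.0306 and 0.0281 from edgeR. Both failed the threshold without treated WT mouse 1 and without treated App NL-G-F mouse 3. Bbs9 fell by 0.25 on the log2 scale (SE 0.07, adjusted p = 0.0111 from edgeR). Of the further genes of the pathway, 23 of 34 motile genes were lower and 0 higher, and of 37 transport genes 4 were lower and 3 higher. Over all tested genes 21.8% were lower and 20.8% higher. Whether these pathway genes passed the filter on low counts only through the treated WT mice was not checked. All 7 tested ependymal markers, all 10 markers of the choroid plexus, 4 of 5 markers of fibroblasts, 6 of 6 of mural cells, 5 of 6 of endothelial cells and 5 of 7 of neurons were lower in treated App NL-G-F than in treated WT mice as well. The 7 ependymal markers include 1700012B09Rik and Tmem212, which may have passed the filter on low counts only with the treated WT mice. Tmem212 had 1.01 CPM in veh-treated WT mouse 2 and 1.63 and 2.40 CPM in treated WT mice 2 and 3. In every other library it had at most 0.604 CPM. Neither marker lends support here, and Ccdc153, Dynlrb2 and Enkur among the 7 are themselves genes of motile cilia. Of the 8 markers of astrocytes 1 was higher, and of those of microglia 3 were higher and 5 lower. The part of these cells in the levels of the members was not tested.

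**Figure D4:**
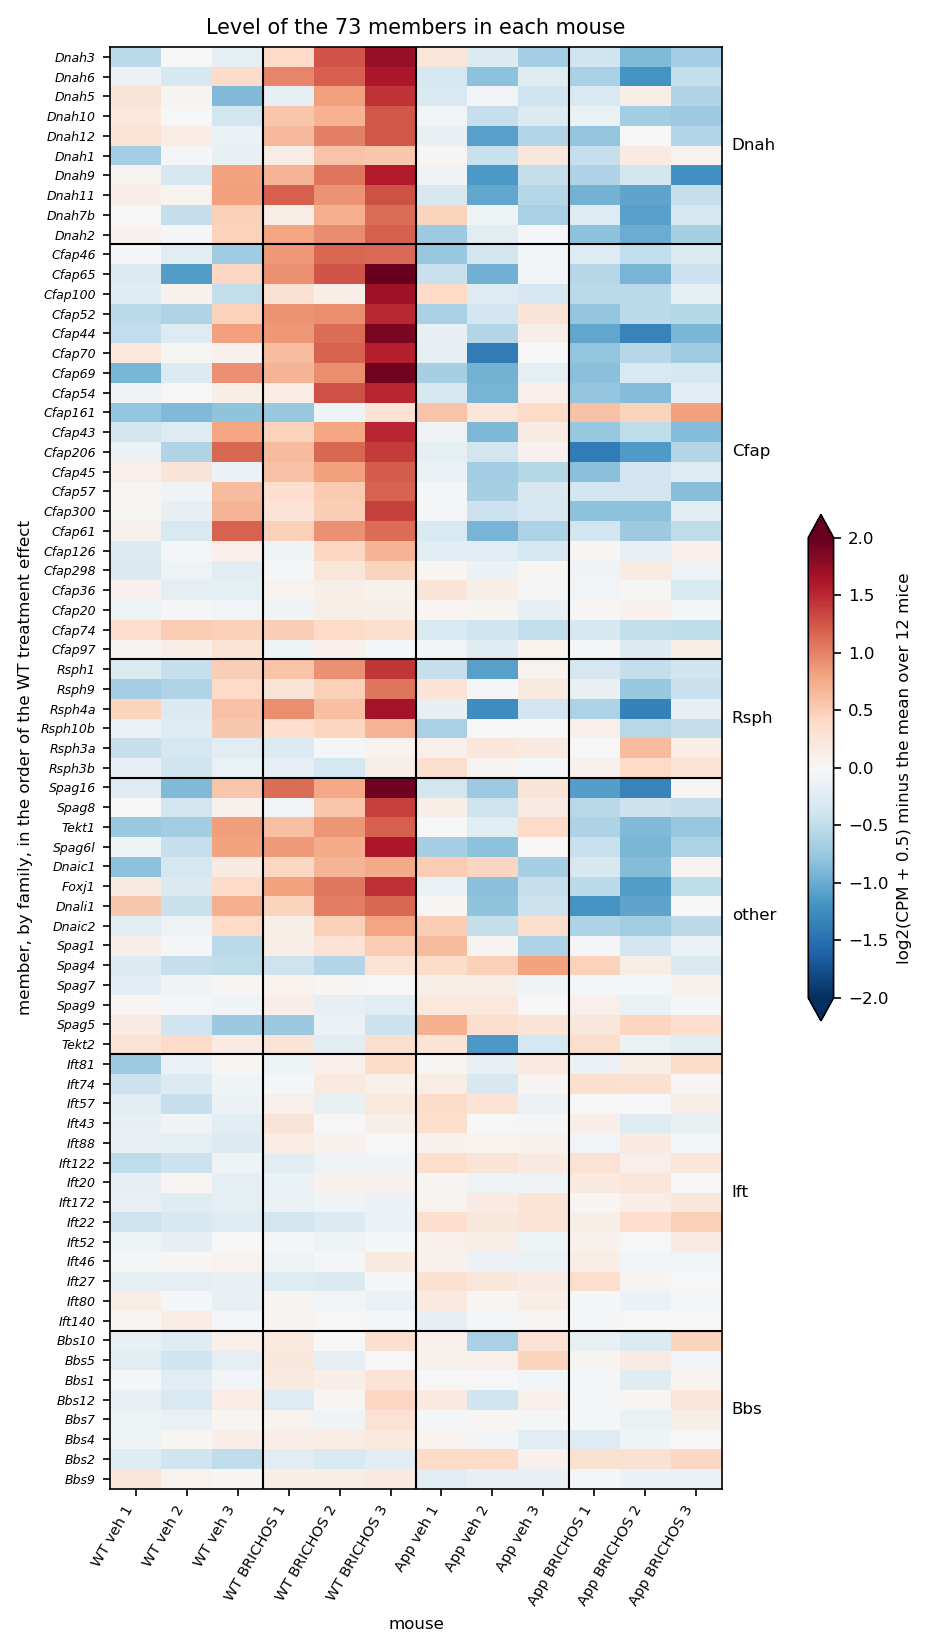
Level of the 73 members (rows, by family and in the order of the log2 fold change in WT mice) in each of the 12 mice (columns), as log2(CPM + 0.5) minus the mean of the row; red is above and blue below the mean, and colours end at 2 and -2. The treated WT mice are red in nearly all cells of the Dnah rows and most of the Cfap rows, most strongly in mouse 3, while the Ift and Bbs rows stay pale in all mice.

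The motile and transport families were also set against each other within each mouse, as the mean log2(CPM + 0.5) of the 37 motile members minus that of the 22 transport members. The value was -2.06, -2.12 and -1.78 in veh-treated WT mice and -1.69, -1.38 and -1.07 in treated WT mice. It was -2.36, -2.58 and -2.32 in veh-treated and -2.59, -2.61 and -2.57 in treated App NL-G-F mice. The treated WT mice were thus highest, with mouse 3 at the top, and veh-treated WT mouse 3 was nearest to them. The WT groups overlapped neither with each other nor with an App NL-G-F group, whereas App NL-G-F mouse 2 given veh lay among the treated App NL-G-F mice. Without the 4 motile members that met the count rule through the treated WT mice, the value was -1.94 to -1.54 in veh-treated and -1.50 to -0.92 in treated WT mice, and -2.40 to -2.10 and -2.41 to -2.36 in App NL-G-F mice given veh and treated. The median log2 fold change of the motile minus that of the transport members was 0.82 in treated WT mice, -0.24 in treated App NL-G-F mice, -0.58 between strains with veh and -2.06 between strains with treatment. In treated App NL-G-F mice it was -0.07 without App NL-G-F mouse 3 given veh and -0.44 without App NL-G-F mouse 2 given veh. Between strains with veh it was -0.34 without veh-treated WT mouse 3. Without those 4 members it was 0.81, -0.20, -0.60 and -1.99 in the same order of comparisons. With at least 10 counts required in every library it was 0.53 in treated WT mice and -1.06 between strains with treatment.

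The 24 members with too few counts were looked at as a sum. The 17 motile members among them, none above 21 counts in any library, summed to 2.91 to 4.33 CPM in veh-treated WT mice, 5.10 to 7.21 CPM in treated WT mice, 1.93 to 2.78 CPM in veh-treated and 1.86 to 2.27 CPM in treated App NL-G-F mice. The treated WT mice did not overlap with any other group. The 7 others, such as Spag17, Tekt3 and Tekt5, summed to at most 2.46 CPM, and 1 of them, Spag11a, had no count in any library. Of the 73 reported members, 40 overlap another annotated gene, 13 on the same strand, so that part of their reads may belong to a neighbour.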

How the data were processed

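Bulk RNA-seq counts of 12 libraries, 3 male mice in each of 4 groups, were analysed. The deposited counts are whole reads per Ensembl gene (GRCm38) made by the authors with featureCounts 1.5.1 after alignment with STAR 2.6.1d and quality control with FastQC 0.11.8, as the submitters' processing notes list them. The libraries were strand-specific, and the strand setting of the counting is not given in the sources used here. Genes with enough counts (filterByExpr, minimum count 10) were fitted with edgeR 4.0.16 (R 4.3.3) with TMM scaling and a quasi-likelihood model of the group means over all 12 libraries, so that all comparisons shared 1 estimate of the spread. Treatment comparisons and their difference were called at an unadjusted p-value under 0.05, and strain comparisons at an adjusted p-value (Benjamini-Hochberg over all 15425 genes tested) under 0.05. The standard error is the log2 fold change divided by the square root of the F statistic. The p-values set each difference against the spread between mice within groups, estimated for each gene over all 4 groups of 3 mice.

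The members and lists were chosen with earlier results of these data known. Genes were named by a rule, which took Foxj1, the 5 motile, 3 transport and 3 other members with the lowest p-value past the threshold in each direction of each comparison between groups, the 3 motile and 3 transport members with the highest CPM, and every tested Dnaic, Dnali, Tekt and Spag member among the 73 reported (Tekt5 was tested but did not have 10 counts in 3 libraries, and is only named). The further Dnah, Cfap, Rsph, Ift and Bbs genes and the pathway genes were named after their values had been seen. Alternatives were DESeq2 1.42.0, DESeq2 size factors, other filters on low counts, a fold cutoff, a replicate block and leaving out each library. The fitting was tested on simulated data.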

Additional observations from a re-analysis of the deposited data

How the results depend on the processing

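The median log2 fold change of the motile minus that of the transport members kept its sign in all 5 comparisons under each alternative run. Without a filter, the count of members past the threshold was 10 in place of 16 between strains with veh, and with a log2 fold change above 1 in size in addition it was 4. Leaving out the 5 members that met the count rule through the treated WT mice, an alternative chosen after seeing the data, gave 29, 5, 16, 38 and 22 for the treatment in WT and in App NL-G-F mice, the strains with veh and with treatment, and the difference. Requiring 10 counts in every library left 47 members and by that construction the higher levels. The counts were then 17 in place of 33 for the treatment in WT mice, 2 in place of 5 for that in App NL-G-F mice, 22 in place of 43 between strains with treatment and 16 in place of 26 for the difference, and the median of motile minus transport members was 0.53, -1.06 and -0.65 in the first, the third and the last of these.

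With single libraries left out, the counts ranged from 12 to 37 for the treatment in WT mice, 2 to 7 for that in App NL-G-F mice, 9 to 16 for strains with veh, 37 to 43 with treatment and 17 to 29 for the difference. The median of motile minus transport members ranged from 0.63 to 1.08 for the treatment in WT mice, -0.44 to -0.07 in App NL-G-F mice, -0.82 to -0.34 between strains with veh, -2.25 to -1.68 with treatment and -1.41 to -0.88 for the difference. For 6 genes that did not pass the threshold in WT mice the sign was not fixed, and their log2 fold changes ranged from -0.40 to 0.18 for Spag5, -0.019 to 0.071 for Ift52, -0.083 to 0.013 for Ift140, -0.42 to 0.042 for Tekt2, -0.19 to 0.69 for Spag4 and -0.18 to 0.015 for Spag9.

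Same-numbered libraries share only a number in the labels. The correlation of their deviations from the group means was between -0.01 and 0.23, and 9 of 12 libraries correlated best with their own number, which is a hint from the data and not from the design. With the replicate block the counts were 34 for the treatment in WT mice, 8 for that in App NL-G-F mice, 19 and 40 for the strains with veh and with treatment, and 30 for the difference. Among the named genes' values under the alternatives, 974 kept direction and side of the threshold, 78 lost the call, 1 gained it (Foxj1 between strains with veh, adjusted p = 0.0449 from edgeR with the block) and 6 changed sign. Depth limits the motile members, of which 19 of 37 had under 10 counts in at least 1 library.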
